A study of Rattus norvegicus with 4 samples.

Results

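Alpl, Ggt1 and Spp1 are genes whose products are read as signs of impaired bile flow or of a reaction of the bile ducts. They were taken as every array feature annotated with exactly 1 of these symbols, which gave 4 of 1936 features: features 83 and 792 for Alpl, feature 527 for Ggt1 and feature 1000 for Spp1. All 4 features matched the same symbol in RefSeq by gene ID, and no feature with several symbols held any of the 3 genes. The liver RNA came from male Sprague-Dawley rats killed 24 h after an intraperitoneal injection of 75 mg/kg of α-naphthylisothiocyanate (ANIT) in olive oil, or of the same volume of olive oil alone. ANIT damages the cells that line the bile ducts and causes cholestasis inside the liver. RNA from the right lateral liver lobe of the 3 rats of a condition was mixed, so each condition is 1 RNA pool. The pools, 1 in Cy3 and 1 in Cy5, shared each of 4 spotted cDNA arrays. Arrays 1 and 3 carried ANIT in Cy5, and arrays 2 and 4 carried it in Cy3.

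Alpl encodes the tissue-nonspecific alkaline phosphatase, an enzyme anchored to the cell surface that removes phosphate from pyrophosphate and from the vitamin B6 coenzyme pyridoxal phosphate. In rat liver it sits on the bile canalicular face of hepatocytes, and its activity in serum rises when bile flow is blocked. Ggt1 encodes γ-glutamyltransferase, which starts the breakdown of extracellular glutathione and in the adult rat liver is found mainly in bile duct cells. Spp1 encodes osteopontin, a secreted phosphoprotein that binds integrins and CD44 and is made in liver by bile duct cells and by some macrophages and stellate cells.

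The values are log ratios of the 2 pools, read as log2 and given as ANIT over olive oil. The base is not stated in the sources used here, and natural logarithms would make the folds larger. No label states the direction either. ANIT over olive oil is the likely reading, because the labels name olive oil as the first channel and ANIT as the second on every array. The sign of every ratio rests on this reading. The precision is limited by the number of arrays, and spot intensities were not analysed here. Whether the spots of these genes, Ggt1 and Spp1 included, were above background was therefore not tested. Each SD below is over 4 hybridisations of the same pools, so it holds hybridisation error and the difference between dye orientations but not the spread between rats. No test of the treatment was made, because each condition is 1 pool. Calls of higher or lower needed a mean of at least 1 in size on the log2 scale (2-fold) and 1 sign shared by all 4 arrays. Housekeeping features gave means of -0.17 ± 0.21 for Actb (β-actin), and of -0.20 ± 0.81 (feature 359) and -0.10 ± 0.12 (feature 1050) for Hprt1, a purine salvage enzyme.

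Alpl was higher in the ANIT pool on both of its features, while the single features of Ggt1 and Spp1 gave ratios whose sign depended on the dye. Over its features together Alpl was 2.40-fold higher (log2 ratio 1.26 ± 0.06, SD, n = 4 arrays). The SDs of the features alone were larger, 0.19 on feature 83 and 0.18 on feature 792. In whole liver RNA, more cells with a transcript and more transcript per cell cannot be told apart. Of the 4 features 2 were called higher, both of Alpl, and 0 were called lower. Over all 1936 features, 0.775% were called higher and 3.05% lower by the same rule. Of the 1936 features 485 carried no gene symbol, so shares of all features here and below are not shares of genes.

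Alpl feature 792 had log2 ratios of 1.55 on array 1, 1.40 on array 2, 1.48 on array 3 and 1.13 on array 4. All arrays lay above the 2-fold line in the ANIT direction, and the lowest was an array with ANIT in Cy3. The mean was 1.39 ± 0.18, or 2.62-fold. Alpl feature 83 had log2 ratios of 1.01, 1.27, 0.95 and 1.33 on arrays 1 to 4. Here the arrays with ANIT in Cy5 were the lower ones, and array 3 fell just short of 2-fold. The mean was 1.14 ± 0.19, or 2.20-fold. With ANIT in Cy5 alone, feature 83 had a mean of 0.98 and did not reach 2-fold, while feature 792 had 1.51 (0.671% of all features were called higher on these 2 arrays). With ANIT in Cy3 alone, both features were past 2-fold, at 1.30 for feature 83 and 1.27 for feature 792 (0.981% of all features).

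The average over both Alpl features varied less between arrays than either feature did. Their means with ANIT in Cy5 minus those with ANIT in Cy3 had opposite signs, -0.32 on feature 83 and 0.25 on feature 792. In the average these differences offset each other in part. Averaged within each array, Alpl had ratios of 1.28, 1.33, 1.21 and 1.23 on arrays 1 to 4. Feature 792 exceeded feature 83 by 0.54 on array 1, 0.13 on array 2 and 0.53 on array 3, and was below it on array 4 (difference -0.19). The mean difference of 0.25 ± 0.35 was smaller than its spread over arrays. On every array both features lay between the 99.2 and 99.8 percentile of all features. By mean ratio feature 792 ranked 9 and feature 83 ranked 11 from the top of the 1936 features. With the ratios turned to olive oil over ANIT the ranks would be 1928 and 1926, at the bottom of the list. Of the 15 features called higher, 9 carried a single symbol and stood for 7 genes. Alpl and Cyp1a2, a cytochrome P450, were the genes with more than 1 feature among them.

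The promoter of Alpl is shown because Alpl is the 1 gene of the 3 past the 2-fold rule. The window runs from 250 bases before to 50 bases after the RefSeq transcription start, at chr5:155289736-155290035 on the minus strand of the rat assembly GRCr8, written 5′ to 3′. Capitals mark matches to GGGCGG, the GC box bound by Sp-family factors, on either strand.
Alpl promoter: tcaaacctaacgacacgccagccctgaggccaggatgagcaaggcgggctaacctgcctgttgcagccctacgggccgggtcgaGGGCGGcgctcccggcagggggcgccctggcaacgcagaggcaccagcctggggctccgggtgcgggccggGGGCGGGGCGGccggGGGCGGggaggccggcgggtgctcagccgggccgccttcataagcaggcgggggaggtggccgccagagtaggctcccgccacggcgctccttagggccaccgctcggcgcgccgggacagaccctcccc
The window held 4 GC box matches, the middle pair of which overlap, and 33.1% of the 33469 RefSeq promoter windows of this length held at least 1. Its GC content was 76.3%, against a median of 51.7% over all windows. The same search found no GC box in the Ggt1 window (GC content 57.7%) or in the Spp1 window (48.7%). For both of these genes RefSeq also places a start further upstream, so these windows are not their only promoters. The RefSeq span of Alpl does not reach upstream of its start. Whether Alpl has another start downstream, and whether the window shown is the one used in liver, was not tested. TTCNNNGAA, the palindrome bound by STAT factors and present in 8.87% of windows, was found in none of the 3. Nor was CCAAT (37.5% of windows). TATAAA (14.2%) had 1 match, in the Spp1 window at position -204 from the transcription start. These matches describe letters in the windows and were not tied to the array ratios.

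Ggt1 feature 527 had log2 ratios of -1.20 and -1.34 on arrays 1 and 3, and of 0.66 and 0.63 on arrays 2 and 4. The ANIT pool was thus the lower one with ANIT in Cy5 and the higher one with ANIT in Cy3, and the orientations did not overlap. The mean over the 4 arrays was -0.31 ± 1.11, well inside its spread. Spp1 feature 1000 had log2 ratios of -1.29 and -1.44 on arrays 1 and 3, and of 0.62 and 0.62 on arrays 2 and 4. The picture was that of Ggt1, with a mean of -0.37 ± 1.15. On no array did the ratios of Ggt1 and Spp1 differ by more than 0.10, and their mean difference was 0.06 ± 0.04 (Ggt1 above Spp1 on 4 of 4 arrays). With ANIT in Cy5 alone both genes would be called lower, at -1.27 for Ggt1 and -1.36 for Spp1, but so would 34.5% of all features. Below 0 on both arrays with ANIT in Cy5 and above 0 on both with ANIT in Cy3 was the pattern of 53.8% of all features.

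**Figure D1:**
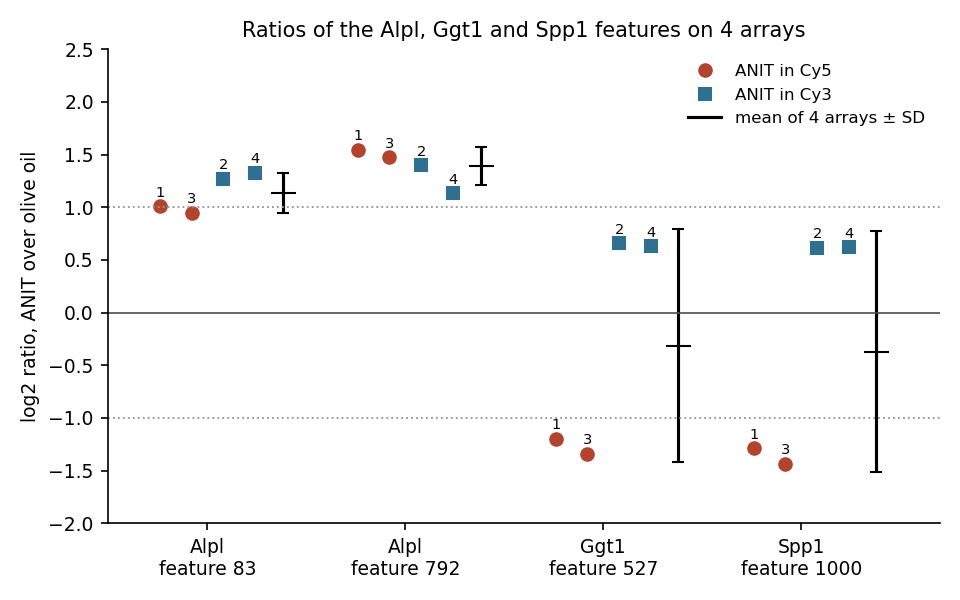
Log2 ratio of ANIT over olive oil (vertical axis) for the 4 features of Alpl, Ggt1 and Spp1, with a point for each array (numbered), coloured by dye orientation, the mean and SD of the 4 arrays in black, and dotted lines at 2-fold. Both Alpl features lie between 0.95 and 1.55 on all arrays, while Ggt1 and Spp1 lie between -1.44 and -1.20 with ANIT in Cy5 and between 0.62 and 0.66 with ANIT in Cy3.

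The difference between dye orientations was tested with limma over all features, taking the arrays as repeats of the hybridisation, with Benjamini-Hochberg adjustment over the 1936 features. The mean with ANIT in Cy5 minus the mean with ANIT in Cy3 was -1.91 for Ggt1 (SE 0.12, limma adjusted p = 7.14e-07) and -1.98 for Spp1 (SE 0.12, limma adjusted p = 6.36e-07). For Alpl it was -0.32 on feature 83 (SE 0.11, limma adjusted p = 0.0288) and 0.25 on feature 792 (SE 0.13, limma adjusted p = 0.119). By this test 64.1% of all features were lower with ANIT in Cy5 and 5.58% were higher, or 69.7% in all. The median orientation difference over all features was -0.79. Differences as low as that of Ggt1 were found for 14.6% of the features, and as low as that of Spp1 for 13.0%. That of feature 792 did not pass the test. For Ggt1, Spp1 and Alpl feature 83 repeat arrays of the same orientation differed by less than the orientations did, but for feature 792 the repeats with ANIT in Cy3 differed by more than the orientations did. The repeats differed by 0.14 and 0.03 for Ggt1, by 0.15 and 0.0039 for Spp1, by 0.06 and 0.05 for feature 83, and by 0.07 and 0.26 for feature 792 (ANIT in Cy5 and in Cy3, respectively).

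Part of the orientation difference belonged to whole arrays. The median over all features was -0.68 on array 1 and -0.64 on array 3, but 0.31 on array 2 and 0.35 on array 4, a mean difference of -0.99. Relative to these medians Ggt1 differed by -0.92 between orientations (limma adjusted p = 0.000145) and Spp1 by -0.99 (limma adjusted p = 9.83e-05). With arrays centred in this way 33.7% of all features were lower with ANIT in Cy5 and 46.4% were higher. Alpl then stood on the other side, with differences of 0.67 on feature 83 (limma adjusted p = 0.000615) and 1.23 on feature 792 (limma adjusted p = 7.19e-05). Centring raised every mean ratio by 0.17, which put Alpl at 1.30 (feature 83) and 1.55 (feature 792), Ggt1 at -0.15 and Spp1 at -0.21. The ranks of Ggt1 and Spp1 within an array also moved with the dye. They lay at percentiles 24.7 and 16.2 (Ggt1) and 19.8 and 12.7 (Spp1) of arrays 1 and 3, and at 85.2 and 79.8 (Ggt1) and 81.4 and 79.0 (Spp1) of arrays 2 and 4.

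The dye contrast, 0.5 times the orientation difference, estimates log2 of Cy5 over Cy3 for a feature and does not enter its mean over the 4 arrays. It was -0.96 for Ggt1 and -0.99 for Spp1, against -0.16 and 0.12 for the Alpl features 83 and 792. A dye contrast no higher than -0.5 was found for 43.2% of the features. Their median mean ratio was -0.34, between the means of Ggt1 and Spp1, and 0.836% of them passed the 2-fold rule in either direction. Among the other 1099 features the median was -0.08 and 6.1% passed.

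**Figure D2:**
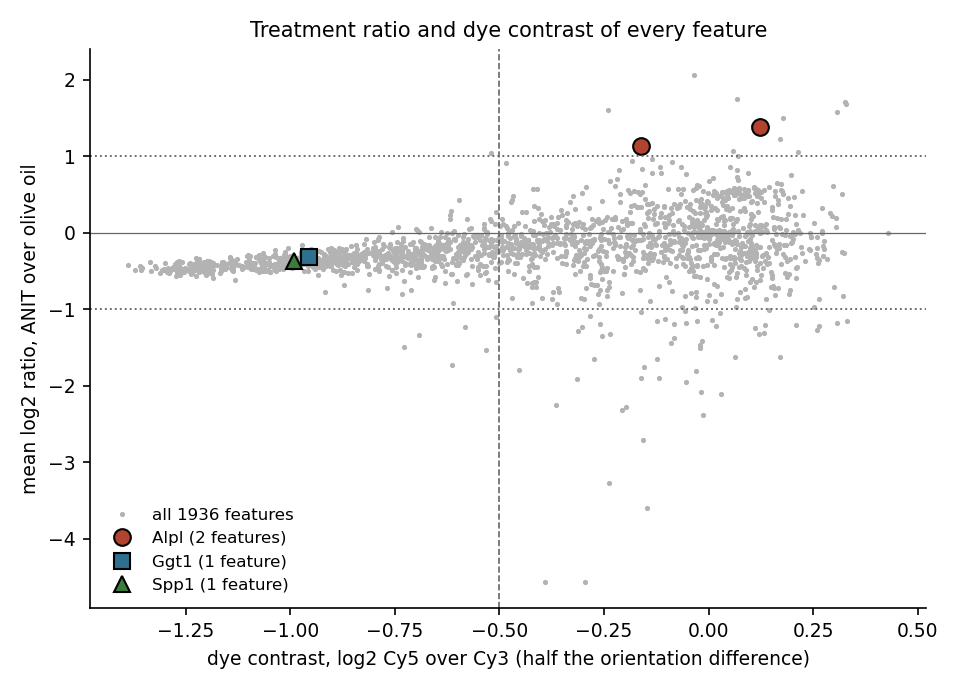
Mean log2 ratio of ANIT over olive oil (vertical axis) against the dye contrast, log2 of Cy5 over Cy3 (horizontal axis), for 1936 features in grey, with Alpl, Ggt1 and Spp1 marked, dotted lines at 2-fold and a dashed line at a dye contrast of -0.5. Ggt1 (-0.96) and Spp1 (-0.99) lie in the narrow left arm of the cloud, and the Alpl features (-0.16 and 0.12) lie above it on the right.

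Set against Ggt1 and Spp1 within each array, Alpl had the higher ratio on 4 of 4 arrays with either of its features. The same held against most of the array, since feature 83 lay above 99% and feature 792 above 99.2% of the other features on 4 of 4 arrays. Feature 83 exceeded Ggt1 by 2.21 and 2.29 on arrays 1 and 3, and by 0.62 and 0.70 on arrays 2 and 4 (mean 1.45 ± 0.92). Feature 792 exceeded Ggt1 by 2.74 and 2.82 on arrays 1 and 3, and by 0.74 and 0.50 on arrays 2 and 4 (mean 1.70 ± 1.25). The direction was shared by both orientations, but the size was not. Against Spp1 the means were 1.51 ± 0.96 for feature 83 and 1.76 ± 1.29 for feature 792, with single arrays from 0.51 to 2.91. With ANIT in Cy3, where the array medians lay above 0, Alpl stood 0.62 to 0.68 above both genes on average. These differences do not depend on centring. They compare ratios, not transcript levels, of the 3 genes.

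**Figure D3:**
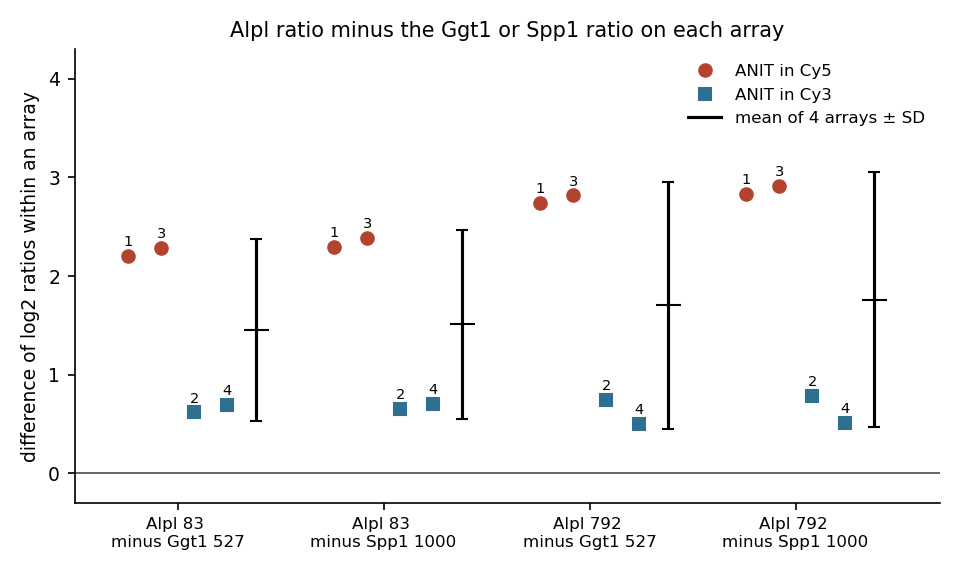
Difference of log2 ratios within an array (vertical axis), each Alpl feature minus the Ggt1 or the Spp1 feature, with a point for each numbered array, coloured by dye orientation, and the mean and SD of the 4 arrays in black. All differences are above 0, from 2.21 to 2.91 with ANIT in Cy5 and from 0.50 to 0.78 with ANIT in Cy3.

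The features of other genes nearest to each of these features were found by Euclidean distance between the log2 ratios of the 4 arrays. Nearest to Alpl feature 792 were both features of Cyp1a2, a P450 inducible through the aryl hydrocarbon receptor, at distances of 0.20 and 0.39, followed by Cavin3, a caveolar coat protein, at 0.49. Nearest to Alpl feature 83 were Alox15, an arachidonate lipoxygenase, at 0.34, Por, the P450 reductase, at 0.46, and Stat3, a transcription factor of cytokine signalling, at 0.55. The features of Alpl were themselves 0.79 apart. Within a distance of 0.5 lay 3 features for each of the 2 Alpl features. Around Ggt1 there were 364 features within the same distance (18.8% of the others), and around Spp1 362 (18.7%). The nearest to Ggt1 were Med1, a Mediator subunit (0.07), Eef2k, a kinase of elongation factor 2 (0.11), and Dyrk2, another kinase (0.13). The nearest to Spp1 were Tnni2, a troponin of fast skeletal muscle (0.07), Pole2, a DNA polymerase subunit (0.08), and Cyp4a8, a P450 of the Cyp4a family (0.09). Spp1 was the seventh nearest feature to Ggt1, at 0.14, since 6 others lay closer.

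Few other genes of the same pathways were on the array. Of 12 other genes of alkaline phosphatases and of pyrophosphate, phosphate and vitamin B6 handling, 1 was measured, Pdxk, which makes pyridoxal phosphate. Its mean was -0.63 ± 0.85, with -1.22 and -1.49 on arrays 1 and 3 and 0.20 and -0.00039 on arrays 2 and 4, so it too followed the dye. Of 14 other genes of glutathione breakdown and synthesis, 2 were measured on 4 features, and none passed the rule. Gss, glutathione synthetase, had a mean of -0.14 ± 0.56. The 3 features of Gclm, the modifier subunit of glutamate-cysteine ligase, had means of -0.13 ± 0.44, 0.11 ± 0.09 and 0.14 ± 0.24. The median of these 2 genes was -0.05, against -0.24 over all 958 genes.

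Osteopontin receptors and related matrix proteins gave 4 measured genes of 18 besides Spp1, on 7 features, with a median of -0.34 and none past the rule. Vtn, vitronectin, had the steadiest values of these on feature 1409, at -0.35 ± 0.03, and -0.48 ± 0.14 on feature 1278. Fn1, fibronectin, was above 0 on every array of both features, at 0.26 ± 0.04 (feature 1517) and 0.50 ± 0.26 (feature 298). The integrin subunit gene Itgb1 had a mean of -0.36 ± 1.28 and a dye contrast of -1.10, the pattern of Spp1. Itgb5, another integrin subunit, had -0.34 ± 0.34 and -0.30 ± 0.21.

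Apical membrane enzymes and pumps, the proteins that share the canalicular face with Alpl, gave 2 measured genes of 13 besides Alpl and Ggt1, with none past the rule. Abcc2, the canalicular pump for conjugated bilirubin, had 0.42, 0.45, 0.35 and 0.40 on arrays 1 to 4, a mean of 0.40 ± 0.04. It stood above 0 in both orientations, as Alpl did, but short of 2-fold. Dpp4, a canalicular peptidase, had 0.10 ± 0.13 (feature 1328) and 0.18 ± 0.61 (feature 220). Of 15 other genes whose enzymes are read in serum after liver injury, 2 were measured. Got1, aspartate aminotransferase, had a mean of -0.73 ± 0.46, and Ldha, lactate dehydrogenase A, had -0.32 ± 0.17 and -0.34 ± 0.36. Neither passed the rule. Both had means below 0, but so did the median over all features (-0.25), near which the Ldha features lay.

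**Figure D4:**
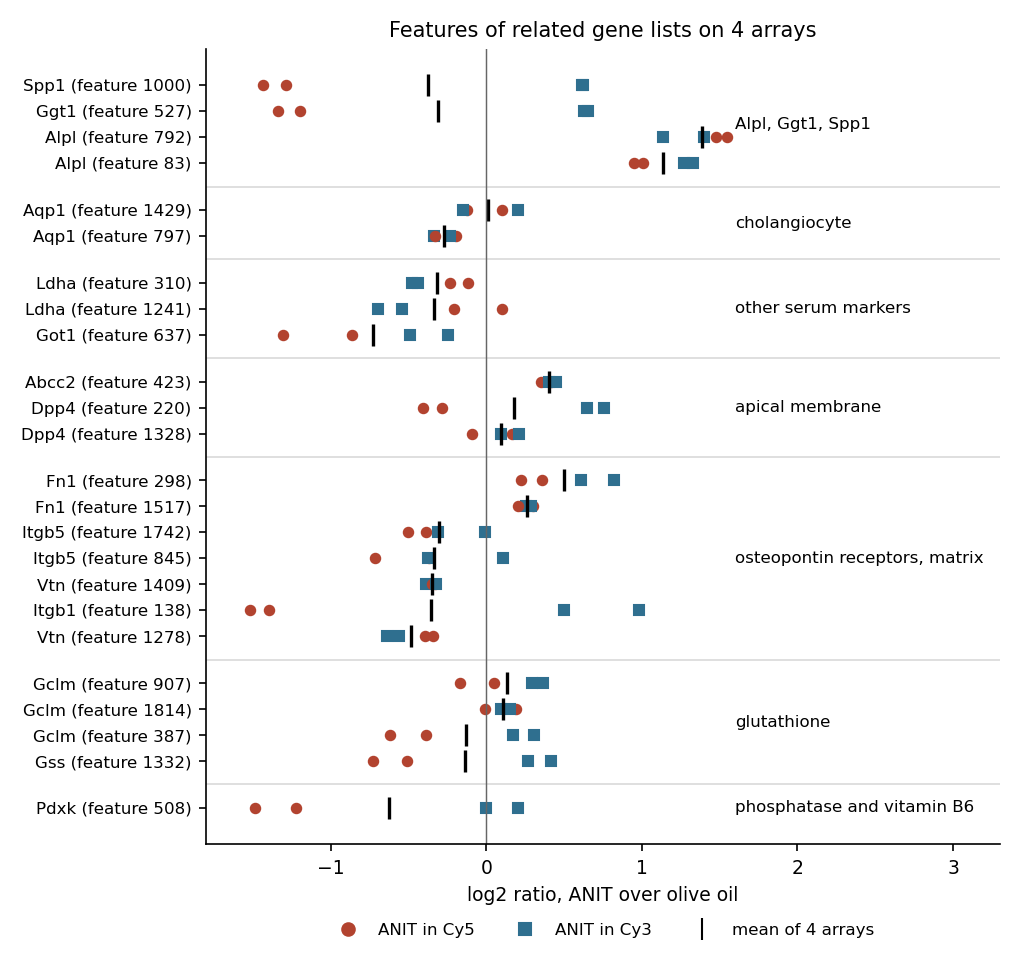
Log2 ratio of ANIT over olive oil (horizontal axis) on the 4 arrays for each feature of Alpl, Ggt1 and Spp1 and of the related gene lists, coloured by dye orientation, with a black bar at the mean. The Alpl features are the only ones shown whose mean exceeds 1 in size, and the orientations lie apart for Ggt1, Spp1, Itgb1 and Pdxk, among others. The inflammatory list and the cell type lists other than bile duct are not shown. They hold features of Lbp, Orm1, Stat3 and Cyp2e1 whose means also exceed 1 in size.

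In a list of 18 inflammatory and acute phase genes, 12 were measured and 2 passed the rule by gene mean, both higher. They were Lbp, a plasma protein that binds lipopolysaccharide (1.75 ± 0.12), and Orm1, an acute phase glycoprotein (1.06 ± 0.29). Stat3 had 1.00 ± 0.11 and 0.86 ± 0.23 on its features 723 and 1418, of which the first passed the rule and the second did not. The members did not share a direction, and the 17 features had means from -0.64 ± 0.59 (A2m, α2-macroglobulin) to that of Lbp. Below 0 were also the cytokine genes Tnf (-0.50 ± 0.29) and Il1b (-0.40 ± 1.12 and -0.33 ± 1.00). Above 0 were also Cp, ceruloplasmin (0.24 ± 0.11 and 0.91 ± 0.56), and the receptor gene Il1r1 (0.52 ± 0.07). The median of the list was 0.08, beside -0.24 over all genes. Among all 958 genes, 6 were higher (0.626%) and 34 lower (3.55%) by gene mean. Without array 1 or with ANIT in Cy3 alone 1 gene of this list was higher.

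Bile duct cells were represented, besides Ggt1 and Spp1, by 1 of 12 other listed markers, the water channel Aqp1, with -0.27 ± 0.07 (feature 797) and 0.01 ± 0.17 (feature 1429). The defining bile duct markers Krt7, Krt19 and Epcam had no feature annotated with their symbol alone, so the share of bile duct RNA in the pools was not tested. Of 8 macrophage markers none was measured, and of 7 neutrophil markers 1 was, S100a9, with -0.37 ± 1.36 and 0.11 ± 0.53. Stellate cell and fibroblast markers (3 of 9 genes, features from -0.45 to 0.13) and endothelial markers (3 of 8 genes, features from -0.44 to -0.22) had none past the rule. Among 12 hepatocyte markers 5 were measured on 12 features, of which 2, both of Cyp2e1, were lower (-1.24 ± 0.14 and -1.05 ± 0.14, where 3.05% of all features were lower). The other 5 features of Cyp2e1 had means from -0.46 to -0.10, and by gene mean 0 of the 5 hepatocyte genes passed the rule. Ratios give no level, so the cell types in the pools cannot be read from them.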

How the data were processed

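Each feature and array has 1 log ratio of the 2 channels as deposited by the authors, taken as log2. The scanner, spot correction, normalization, base and direction are not stated in the sources used here. Base 10 is unlikely, since a 16-bit scanner allows log10 ratios up to 4.82 and the values reach 4.96 in size. Natural logarithms remain possible. Array medians differ from 0, so the deposited values had not been centred on array medians. Values were used as deposited. Features were named from GEO's platform annotation and checked by gene ID against RefSeq (GRCr8), which also gave the promoter windows. Per the labels, dyes were swapped on 2 of the 4 arrays. Means over arrays weight both orientations equally. The 3 genes, the gene lists and the rules were chosen with earlier results of these data known. Genes named are Alpl, Ggt1 and Spp1, the 3 features of other genes nearest to each of their features, the listed genes past the rule or else the 3 with the largest mean in size, housekeeping genes, and further listed genes named after their values were seen. The orientation difference was fitted with limma 3.58.1 (R 4.3.3), and the fit and the 2-fold rule were tested on simulated data. Other steps used Python 3.11.15, numpy 2.4.6, pandas 2.3.3 and matplotlib 3.10.9.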

Additional observations from a re-analysis of the deposited data

Results flagged for a closer look

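The ratios of 3 of the 4 features differed between dye orientations by limma's test of that difference (Benjamini-Hochberg over 1936 features). The mean with ANIT in Cy5 minus that with ANIT in Cy3 was -1.91 for Ggt1 and -1.98 for Spp1, each below 0 on 2 of 2 arrays of the first orientation and above 0 on 2 of 2 of the second. For Alpl feature 83 it was -0.32 (limma adjusted p = 0.0288), with all 4 arrays above 0. By the same test 69.7% of all features differed between orientations.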

How the results depend on the processing

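Alpl kept its direction and stayed past 2-fold on both features with either way of centring and without any 1 array. Arrays were centred on their medians, or on their features with a small dye contrast. The means of features 83 and 792 were 1.30 and 1.55 with the first, and 1.22 and 1.47 with the second. With any 1 array left out they lay between 1.12 and 1.15 (feature 83) and between 1.32 and 1.45 (feature 792). Read as natural logarithms the values gave 1.64 and 2.0. Turned to olive oil over ANIT they were -1.14 and -1.39, with 0 features and 0 genes higher, and 2 features and 1 gene lower. With ANIT in Cy5 alone 1 of the 4 features was higher and 2 were lower, Ggt1 and Spp1, hence also 2 genes; 34.5% of all features were lower on those arrays. At a limit of 3-fold 0 features were higher. Over all features the counts were 15 higher and 59 lower, against 22 and 48 with centred arrays, 48 and 134 at 1.5-fold, 5 and 23 at 3-fold, 33 and 113 with natural logarithms, and 667 lower with ANIT in Cy5 alone. The orientation difference of Alpl feature 83 was -0.32 with a trended prior (limma adjusted p = 0.0505) and -0.35 to -0.29 with each array left out. Those fits hold 1 array in an orientation, which is assumed to vary like the other orientation, so their p-values (limma adjusted p from 0.0434 to 0.206) say little about stability. It turned to 0.67 with centred arrays, and that of feature 792 rose to 1.23 and passed, since centring removes the difference of -0.99 between array medians. No paired analysis was possible because the orientations share no replicate number. The 4 arrays and the single pool per condition limit every value here, and the signal behind a spot was not analysed.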

Other observations

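Features with a strong dye contrast had nearly the same mean ratio as each other. Whether their spots were above background was not tested, so these means are not given as effects of the treatment. At a limit of -0.9 for the dye contrast, set after seeing the data, 355 features lay at or under it. They had a median mean ratio of -0.40, and their 5 to 95 percentile range ran from -0.52 to -0.28. The means of Ggt1 (-0.31) and Spp1 (-0.37) lay inside this range. The 1099 features with a dye contrast above -0.5 had a range from -0.97 to 0.57, and both Alpl features lay above it.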
